A study of Mus musculus with 30 samples.

Results

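The genes described here are 75 immune, cytokine and NF-kappaB genes, chosen by their symbols among the 7151 genes that a custom mouse cDNA array names through a single symbol. They are measured by 84 of the 16896 probes of the array. The symbol rule took class I and class II histocompatibility genes with B2m, interferon regulatory and interferon-induced genes, interleukins and their receptors, chemokines and their receptors, the TNF and TRAF families, Toll-like receptors, NF-kappaB factors and their inhibitors and kinases, complement C1q chains, numbered CD antigens and 5 named cathepsins, of which 4 were found. It used no measured value. It also took 4 genes that share only a prefix with these families (C1qbp, Irf2bpl, Traf3ip1 and Tnfsf13os). No single-symbol probe for a Toll-like receptor, Nfkb1, Rel, Relb, Nfkbib, Nfkbie, Ikbkg or Ctss was found, and these genes were not analysed here.

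The study asked how loss of cyclooxygenase-1 or cyclooxygenase-2, the enzymes that make prostaglandin H2 from arachidonic acid, alters gene expression in the mouse brain. RNA of the cerebral cortex and of the hippocampus came from COX-1-/-, COX-2-/- and heterozygous COX-2 mice (COX-2+/-) and from wild-type mice of the COX-1 line and of the COX-2 line, with 3 arrays in each of the 10 groups. Per the methods the mice were 12 weeks old with a mixed C57BL/6 and 129/Ola background, and the lines were bred apart. Wild types came from wild-type parents and nulls from null fathers and heterozygous mothers, so that nulls and wild types differ in parentage as well. The methods do not describe the heterozygous mice. Every value below is a Z score, the natural log intensity of a probe minus the mean of its array part, divided by the SD of that part. A difference in Z is therefore a number of array SDs and not a fold change.

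Immune genes in the brain are carried largely by microglia, the resident phagocytes, and by vessel cells, with a low level of class I molecules in neurons. NF-kappaB dimers such as RelA with p50 are held in the cytoplasm by IkappaB proteins, which IKK kinases mark for destruction. The freed dimers then switch on genes for cytokines, chemokines, class I molecules and IkappaB alpha itself, which closes the loop. Prostaglandins are themselves mediators of inflammation, and COX-2 is a classical target of this pathway. C1q, the recognition molecule of the classical complement pathway, is made of A, B and C chains and tags synapses for removal by microglia. Cathepsins B, D, L and Z are lysosomal proteases.

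The letters that NF-kappaB and interferon factors read can be shown for members whose promoters hold them, as context for the expression values of these genes. RefSeq promoters (build GRCm38.p6, 250 bases before to 50 after each start) were matched by symbol for 61 of the 75 genes, through 82 start sites. The 150 bases just upstream of a start are printed 5′ to 3′ on the strand of the gene, with matches to the NF-kappaB consensus or to the interferon response element core (GAAA, any pair of bases, GAAA) in capitals. Both motifs were searched on both strands.
B2m (chr2:122147537-122147686, plus strand): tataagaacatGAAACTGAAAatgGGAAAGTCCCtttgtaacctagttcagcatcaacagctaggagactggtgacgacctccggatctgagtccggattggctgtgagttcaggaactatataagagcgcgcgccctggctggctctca
H2-K1 (chr17:34000334-34000483, minus strand): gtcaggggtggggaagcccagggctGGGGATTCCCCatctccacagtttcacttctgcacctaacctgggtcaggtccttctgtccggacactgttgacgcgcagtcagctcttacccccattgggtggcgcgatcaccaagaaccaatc
Nfkb2 (chr19:46304587-46304736, plus strand): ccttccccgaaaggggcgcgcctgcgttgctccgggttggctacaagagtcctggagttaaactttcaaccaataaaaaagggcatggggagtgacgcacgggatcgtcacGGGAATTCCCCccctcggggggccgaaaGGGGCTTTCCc
Nfkbia (chr12:55492648-55492797, minus strand): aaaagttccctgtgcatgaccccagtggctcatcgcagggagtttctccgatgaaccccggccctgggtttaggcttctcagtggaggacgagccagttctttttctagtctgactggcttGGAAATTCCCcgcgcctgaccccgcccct
Tnfsf13b (chr8:10006483-10006632, plus strand): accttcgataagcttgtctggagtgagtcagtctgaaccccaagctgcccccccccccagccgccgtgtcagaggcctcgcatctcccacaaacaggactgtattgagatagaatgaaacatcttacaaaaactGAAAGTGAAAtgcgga
In B2m, the light chain of class I molecules, an interferon core began 139 bases upstream of the start and a match to the NF-kappaB consensus 126 bases upstream. H2-K1, a classical class I heavy chain, had overlapping NF-kappaB matches from 125 bases upstream, and Nfkb2, which encodes p100, had them from 39 bases and again 11 bases upstream. Nfkbia, which encodes IkappaB alpha, had 1 match beginning 29 bases upstream. Tnfsf13b, which encodes the B cell survival factor BAFF, had an interferon core 16 bases upstream and no NF-kappaB match. In all, 14 of the 82 member windows (17.1%) held the NF-kappaB consensus, from 11 genes, against 4.51% of 32851 windows of the whole table. The interferon core was in 4 member windows (4.88%), against 3.44% of all windows. A match describes letters and is not evidence of binding. H2-T10 and 13 other members had no window in the table.

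The processed table had 1 fault that touches the members. In 5 of the 6 COX-1 line cortex arrays the first 8448 probes carried identical values, so those values were left out, and only 44 of the 75 genes could be analysed in the cortex of the COX-1 line. Array medians lay between -0.0721 and -0.0419, and arrays of a group correlated at r = 0.984 to 0.993. The deleted genes Ptgs1 and Ptgs2 have no probe by symbol and were not analysed here, so the genotypes could not be checked on their own transcripts. Of 18 microglial marker genes on a list, 5 had a probe, and 4 of them in the COX-1 line cortex. The members C1qa, C1qb and C1qc are among these markers, so a marker mean holds values of members. The mean Z of the 5 markers lay between -0.249 and -0.172 in the 8 other groups. Since whole tissue was measured, fewer cells of a type and less RNA per cell cannot be told apart.

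Of the 75 members, 43 had a mean Z above 0 and 32 did not. Levels of different probes are not compared, because a cDNA spot carries its own length and amount of DNA. Among antigen presentation genes, 2 of 6 had a mean above 0. The probe for H2-K1 had group means of 2.31 to 2.47 in the 10 groups, and that for H2-T10, an H2-T region locus of class I that RefSeq lists as a transcribed pseudogene, had 0.795 to 1.11. B2m lay at -0.414 to -0.283, and H2-DMa, H2-Eb1 and Cd74, the class II pathway genes, had means of -0.813, -0.630 and -0.434. A cDNA probe for H2-T10 may also bind transcripts of related class I genes, which was not tested.

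For complement, C1qb and C1qc had overall means of 0.469 and 0.269, while C1qa had -0.244, so that the 3 chains of 1 protein fell on both sides of the filter used below. All 4 cathepsins had a mean above 0, with group means of 2.27 to 2.52 for Ctsz, 1.10 to 1.27 for Ctsb, 0.0910 to 0.245 for Ctsd and 0.130 to 0.263 for Ctsl. In the NF-kappaB group 5 of 6 genes had a mean above 0. Ikbke, a kinase related to the IKKs, had group means of 1.52 to 1.65, and Nfkbiz, a nuclear IkappaB protein, 0.953 to 1.08. Ikbkb, the catalytic kinase that phosphorylates IkappaB alpha, lay at -1.16 to -0.800 in every group. Rela was read by 2 probes with overall means of 1.30 and -0.401, and Cd82 by 2 probes with 0.893 and -0.497, so the mean of each gene joins probes that differ widely.

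The rule on mean Z also named Traf7 (group means from 2.06), Tnfaip1 (from 2.10), the interferon-induced transmembrane gene Ifitm2 (2.07 to 2.21), the cytokine receptor chain Il20rb (1.93 to 2.10), the progenitor and endothelial antigen Cd34 (1.98 to 2.08), Il13ra1 (up to 1.88), the CXCL12 receptor Cxcr4 (1.65 to 1.76) and Cd244a (1.57 to 1.68) and, below 0, Il17rc (-1.87 to -1.63), the hyaluronan receptor Cd44 (-1.69 to -1.48), the myeloid factor Irf8 (-1.29 to -0.933) and Cd160 (-1.08 to -0.907). Each value is the level of its own probe and sets no gene above another. The SD among the 3 arrays of a group and pooled over the groups analysed, ran from 0.0312 for Cd82 to 0.205 for Il13ra1, which encodes a chain of the IL-13 receptor.

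Each genotype was compared with the wild type of its own line and region, over genes whose mean Z in the compared groups was above 0. Calls were made with the study's rule, a Z test together with a z ratio beyond 1.5 in size, where the z ratio here is a gene's difference divided by the SD of the differences of all genes in that comparison. The formula in the methods names the SD of all genes on the array instead, which for Z scores is close to 1. Among the members that passed the filter, no difference from wild type exceeded 0.264 in size. They were also made with limma at an adjusted p under 0.05 over all genes tested. With 3 arrays against 3 an exact permutation test of a single gene could not go below p = 0.1, and the limma p-values measure the spread between arrays of a group, since the methods state both 3 mice per group and triplicate hybridisation.

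In the cortex of COX-1-/- mice no member was called. The study's rule called 0 of 26 members tested, against 3.95% of the 2001 genes tested, and limma called 0, against 0.05% of all genes. The members' differences ran from -0.113 to 0.106 with a median of 0.0323, against 0.00722 for all genes, and 16 of the 26 were higher in mean. At an unadjusted limma p under 0.05 there were 2 members, the tetraspanins Cd9 and Cd151, against 15.3% of all genes. Cd151 had 0.606, 0.601 and 0.664 in COX-1-/- cortex, against 0.409, 0.584 and 0.566 in wild-type cortex. The groups did not overlap, and the difference was 0.104 (SE 0.0448, adjusted p = 0.281). Groups did not overlap for 3 of the 26 members (11.5%), against 19.3% of all genes. Beside these values, the mean Z of 4 microglial markers was 0.176 (0.0893 to 0.232) in COX-1-/- cortex and 0.255 (0.211 to 0.279) in wild-type cortex. Of these, 1 marker, Fcer1g, the common gamma chain of Fc receptors, was lower by the study's rule (0.118 ± 0.216 against 0.514 ± 0.130, SD, n = 3 each, z ratio -4.01, adjusted p = 0.147). The other markers were the members C1qa, C1qb and C1qc. C1qa (-0.270 against -0.350 in wild-type cortex) and C1qc (0.338 against 0.310) had higher means in COX-1-/- cortex. C1qb had a lower one (0.517 against 0.545). Their part in the members' values was not tested.

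In the cortex of COX-2-/- mice the study's rule called 1 of 42 members tested, against 4.02% of 3361 genes, and limma called 0, against 0% of all genes. The called gene was Tnfsf13b, with 0.692, 0.521 and 0.597 in COX-2-/- cortex, against 0.566, 0.234 and 0.218 in wild-type cortex. All 3 COX-2-/- arrays lay above the 2 lower wild-type arrays, while the remaining wild-type array lay inside their range. The difference was 0.264 (SE 0.0877, z ratio 2.91), and its limma adjusted p of 0.369 missed the threshold. The call was lost without wild-type replicate 2 (0.211) or replicate 3 (0.203), and without COX-2-/- replicate 1 (0.219) or replicate 3 (0.267). It was lost as well after a running median over the table's order was taken out (0.106, z ratio 1.30).

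At an unadjusted limma p under 0.05 there were 6 members in COX-2-/- cortex, against 10.4% of all genes. Besides Tnfsf13b these were Tnfaip2 with a difference of 0.124, the interferon-induced Ifi27 with -0.119, the neutrophil antigen Cd177 with -0.117, Il27ra with -0.107 and H2-T10 with -0.104. Ifi27 had 1.17, 1.10 and 1.19 in COX-2-/- cortex, against 1.30, 1.24 and 1.28 in wild-type cortex, without overlap (SE 0.0369, adjusted p = 0.336). All 5 interferon genes tested (Irf1, Irf9, Ifngr2, Ifi27 and Ifitm2) had a lower mean in COX-2-/- cortex. Their median difference was -0.0652, and 0 of the 5 were called. Below the filter, Irf8 (-1.03 against -1.01 in wild-type cortex) and Ifitm3 (-0.505 against -0.437) also had lower means in COX-2-/- cortex. Irf3 had a higher one (-0.454 against -0.480). Of all genes tested, 48.7% had a higher mean in COX-2-/- cortex, and of 4 other interferon-stimulated genes tested from a list, 2 were higher and 2 lower in mean, with a median of 0.000330. Nfkbia had 0.439, 0.404 and 0.411, against 0.436, 0.484 and 0.596 in wild-type cortex, with an overlap and a difference of -0.0872. Over the 42 members the median difference was -0.00942, against -0.00210 for all genes, and 9 (21.4%) did not overlap, against 17.5% of all genes.

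In the cortex of COX-2+/- mice the study's rule again called 1 of 42 members, against 3.21% of 3362 genes, and limma called 0, against 0% of all genes. The called gene was Ccl27a, a chemokine known from skin, where it attracts T cells. It had 1.08, 1.12 and 1.08 in COX-2+/- cortex, against 1.03, 0.953 and 0.777 in wild-type cortex. The groups did not overlap, with a difference of 0.175 (SE 0.0624, z ratio 1.82, adjusted p = 0.476). The lowest wild-type array carried much of it, since without wild-type replicate 3 the difference was 0.104 and the z ratio 0.955, and the call was lost without wild-type replicate 2 too (0.192). The near copy Ccl27b could share the probe, which was not tested. At an unadjusted p under 0.05 there were 3 members, Ccl27a, H2-T10 (-0.125, adjusted p = 0.399) and the cytokine Il16 (-0.129), against 8.42% of all genes. The members' median was -0.00931, against 0.00438 for all genes, and 5 (11.9%) did not overlap, against 15.8%. The mean of 3 markers of endothelium and blood vessel was 0.185 (0.139 to 0.234) in COX-2+/- cortex and 0.315 (0.295 to 0.353) in wild-type cortex without overlap, and their part was not tested.

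In the hippocampus of COX-1-/- mice the study's rule called 1 of 43 members, against 4.46% of 3431 genes, and limma called 0, against 0.117% of all genes. The called gene was Ctsz, a lysosomal carboxypeptidase, with 2.37, 2.27 and 2.27 on the COX-1-/- hippocampus arrays, against 2.69, 2.39 and 2.48 on those of the wild type. All COX-1-/- arrays lay below all wild-type arrays. The difference was -0.215 (SE 0.0688, z ratio -2.04, adjusted p = 0.159). The call rested on the high wild-type array, as the difference was -0.130 without wild-type replicate 1. It was also lost without wild-type replicate 3 (-0.236), without COX-1-/- replicate 2 (-0.198) or replicate 3 (-0.201), with both lines' wild types as control (-0.134), after quantile normalization (-0.173) and after the running median was taken out (-0.103). The other 3 cathepsins, Ctsb, Ctsd and Ctsl, had lower means in COX-1-/- hippocampus as well, with a median of -0.0508 over the 4 genes, against -0.00836 for all genes, and did not meet the rule. The difference of Ctsb was only -0.0107, and the 2 probes of Ctsl differed in sign (0.0505 and -0.152).

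All 5 interferon genes tested had a higher mean in COX-1-/- hippocampus, with differences from 0.0268 (Irf9) to 0.116 (Irf1) and a median of 0.0490, and 0 of the 5 were called. Below the filter and not tested, Irf3 (-0.517 against -0.330 in wild-type hippocampus) and Irf8 (-1.089 against -1.001) had lower means in COX-1-/- hippocampus. Ifitm3, also below the filter, had a higher one (-0.275 against -0.401). Of all genes tested, 45.3% had a higher mean there, and of 5 other interferon-stimulated genes tested from the list, 4 were higher and 1 lower in mean, with a median of 0.0446. At an unadjusted limma p under 0.05 there were 4 members, Ctsz, C1qb (-0.0956), Irf1 and the TNF receptor family member Tnfrsf23 (0.142), against 16% of all genes. C1qb had 0.356, 0.377 and 0.386 on the COX-1-/- hippocampus arrays, against 0.441, 0.528 and 0.437 on those of the wild type, without overlap (adjusted p = 0.257). The chain C1qc had a higher mean in COX-1-/- hippocampus (0.265 against 0.191). C1qa, below the filter, had a lower one (-0.130 against 0.00389). Microglial markers averaged -0.236 in COX-1-/- hippocampus and -0.239 in wild-type hippocampus, while 3 neuron markers averaged 0.440 (0.428 to 0.452) in COX-1-/- hippocampus and 0.404 (0.397 to 0.418) in wild-type hippocampus without overlap. Their part in these values was not tested. The median of the 43 members was -0.00749, and 6 of them (14%) did not overlap, against 21.2% of all genes.

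In the hippocampus of COX-2-/- mice the study's rule called 1 of 43 members, against 4% of 3379 genes, and limma called 0, against 0% of all genes. Cd177, a surface antigen of neutrophils, had 0.699, 0.666 and 0.779 in COX-2-/- hippocampus, against 0.579, 0.450 and 0.647 in wild-type hippocampus. The groups did not overlap, with a difference of 0.156 (SE 0.0476, z ratio 1.69, adjusted p = 0.291). Without wild-type replicate 2 the difference was 0.101 and the z ratio 1.03, and the call was also lost without wild-type replicate 1 (0.166), without COX-2-/- replicate 1 (0.164) or replicate 3 (0.124) and after the running median was taken out (0.0522). In the cortex Cd177 had the opposite sign, as given above.

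Just outside the rule in COX-2-/- hippocampus was Traf7, a ubiquitin ligase of the TRAF family, with a z ratio of -1.49. It had 2.08, 1.99 and 2.11 in COX-2-/- hippocampus, against 2.17, 2.21 and 2.21 in wild-type hippocampus, without overlap (difference -0.137, SE 0.0422, adjusted p = 0.291). At an unadjusted p under 0.05 there were 4 members, these 2 with Ifitm2 (0.119) and Il1rl2 (-0.103), against 12.1% of all genes. Nfkbia had 0.542, 0.645 and 0.631, against 0.523, 0.523 and 0.470 in wild-type hippocampus, all COX-2-/- arrays lying above the wild type (0.101, SE 0.0564, not called). The members' median was -0.00808, against 0.00416 for all genes, and 7 (16.3%) did not overlap, against 16.8%. Beside these values, the oligodendrocyte marker Enpp6 had 0.0818 ± 0.146 in COX-2-/- hippocampus and 0.355 ± 0.0793 in wild-type hippocampus (SD, n = 3 each) and was lower by the study's rule (z ratio -2.98, adjusted p = 0.291). The mean of 3 astrocyte markers was 0.737 (0.725 to 0.745) in COX-2-/- hippocampus and 0.775 (0.749 to 0.803) in wild-type hippocampus without overlap, and that of 5 microglial markers was -0.172 (-0.252 to -0.100) in COX-2-/- hippocampus and -0.249 (-0.276 to -0.208) in wild-type hippocampus with an overlap. Their part in the members' values was not tested.

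In the hippocampus of COX-2+/- mice the study's rule called 3 of 43 members (6.98%), against 6.27% of 3365 genes, and limma called 1 (2.33%), against 1.78% of all genes. The gene called by both was H2-T10, which rose to 1.10, 1.10 and 1.10 in COX-2+/- hippocampus, against 0.839, 0.932 and 0.858 in wild-type hippocampus. The 3 heterozygous arrays were almost alike (SD 0.00328) and lay well above every wild-type array. The difference was 0.223 (SE 0.0502, z ratio 2.07, adjusted p = 0.0383). It lost the limma call without any 1 of the 6 arrays, with adjusted p from 0.0896 to 0.125 and a difference of 0.205 to 0.251.

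Both other calls there were by the study's rule alone. Tnfrsf23, a decoy receptor of the TNF family, had 0.652, 0.735 and 0.749 in COX-2+/- hippocampus, against 0.619, 0.544 and 0.414 in wild-type hippocampus, without overlap (difference 0.186, SE 0.0564, z ratio 1.72, adjusted p = 0.0984). Ctsb had 1.33, 1.24 and 1.26 in COX-2+/- hippocampus, against 1.19, 1.04 and 1.07 in wild-type hippocampus, again without overlap (0.175, SE 0.0724, z ratio 1.62, adjusted p = 0.210). Tnfrsf23 was no longer called without wild-type replicate 2 (0.196) or replicate 3 (0.131), nor Ctsb without wild-type replicate 2 (0.146) or replicate 3 (0.158) or COX-2+/- replicate 1 (0.148). Each was lost as well after the running median was taken out, with differences of 0.124 for Tnfrsf23 and 0.108 for Ctsb.

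Among the NF-kappaB genes of COX-2+/- hippocampus, Ikbke had 1.67, 1.63 and 1.64, against 1.506, 1.495 and 1.570 in wild-type hippocampus, without overlap (0.123, adjusted p = 0.155). Of the 4 NF-kappaB genes tested there, 3 had a higher mean and 1, Rela, a lower one (-0.0705). Below the filter and not tested, Nfkb2 (-0.205 against 0.0163 in wild-type hippocampus) and Ikbkb (-0.973 against -0.896) had lower means. C1qb had 0.575, 0.558 and 0.507, against 0.483, 0.393 and 0.388 in wild-type hippocampus, without overlap (0.126, adjusted p = 0.112). The means of C1qc lay close together (0.297 in COX-2+/- and 0.286 in wild-type hippocampus). C1qa, below the filter, had a lower mean in COX-2+/- hippocampus (-0.322 against -0.270). At an unadjusted p under 0.05 there were 8 members (18.6%), against 18.4% of all genes, and 12 (27.9%) did not overlap, against 32.7%. The median difference was 0.0109, against 0.000452 for all genes. Beside these values, microglial markers averaged -0.172 (-0.180 to -0.164) in COX-2+/- hippocampus and -0.249 (-0.276 to -0.208) in wild-type hippocampus without overlap. The mean of 3 neuron markers was 0.430 (0.409 to 0.461) in COX-2+/- hippocampus and 0.537 (0.514 to 0.564) in wild-type hippocampus, and that of 3 astrocyte markers 0.690 (0.655 to 0.739) in COX-2+/- hippocampus and 0.775 (0.749 to 0.803) in wild-type hippocampus, both without overlap. The choroid plexus marker measured spanned 0.246 to 1.90 in COX-2+/- hippocampus and 0.402 to 2.36 in wild-type hippocampus. Their part in the differences was not tested. C1qb is itself on the microglial list.

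**Figure D1:**
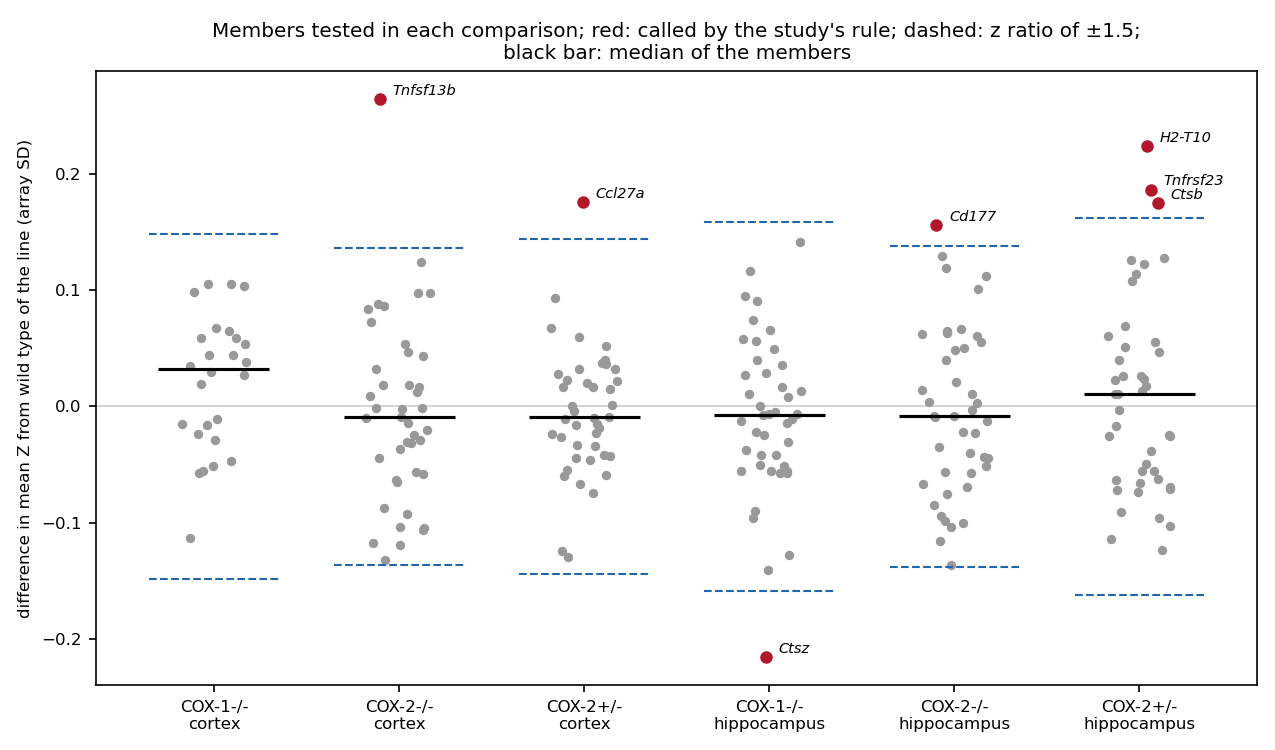
Difference in mean Z from the wild type of the line (vertical axis, array SD) for each member tested in the 6 genotype comparisons. Grey points are members not called, red points those called by the study's rule, dashed lines a z ratio of 1.5 in either direction, and black bars the medians, which lie between -0.00942 and 0.0323 while single members range from -0.215 to 0.264.

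**Figure D2:**
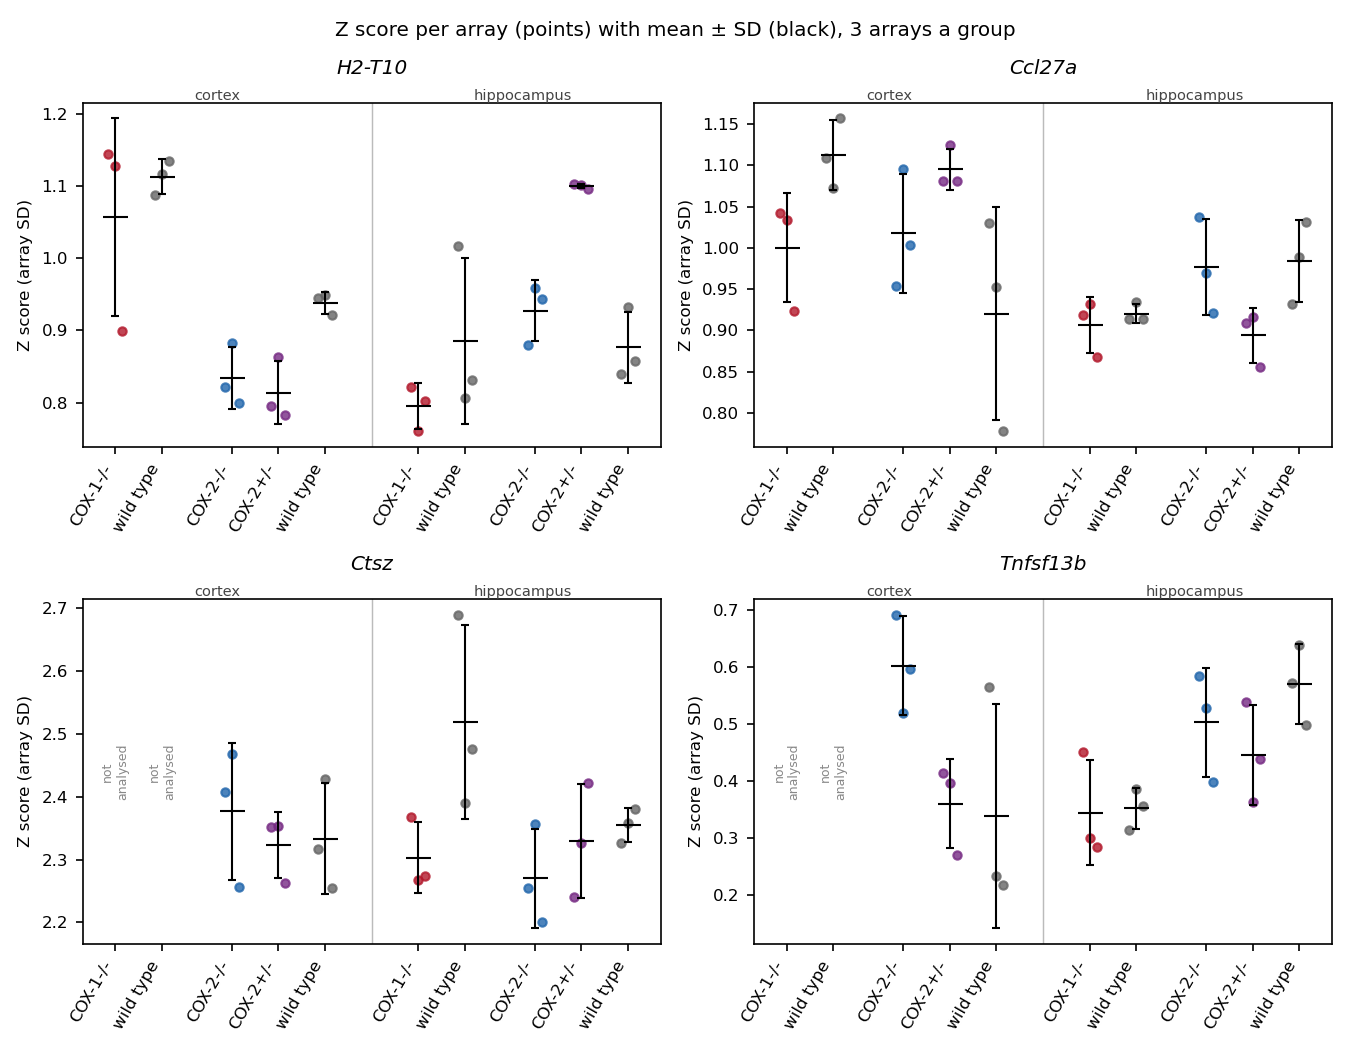
Z score (vertical axis, array SD) of H2-T10, Ccl27a, Ctsz and Tnfsf13b on every analysed array, by genotype within cortex and hippocampus, with coloured or grey points for arrays and black bars for the mean ± SD of 3 arrays. The COX-2+/- hippocampus arrays of H2-T10 sit together at 1.10, and single wild-type arrays stand away from their group for Ccl27a (0.777 in cortex), Ctsz (2.69 in hippocampus) and Tnfsf13b (0.566 in cortex).

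The null effects of the lines were compared as the COX-1-/- minus the COX-2-/- difference from wild type. In cortex 0 of 25 members passed, against 0% of 2004 genes, and in hippocampus 0 of 43, against 0% of 3400 genes. At an unadjusted limma p under 0.05 there were 3 members in cortex (12%, against 11.4% of all genes) and 3 in hippocampus (6.98%, against 6.76%). Those in cortex were Ccl27a (-0.210), Ifi27 (0.163) and Cd151 (0.141), with a smallest adjusted p of 0.365, and those in hippocampus Irf1 (0.160), C1qb (-0.156) and Ctsd (-0.116), with a smallest adjusted p of 0.696. No difference between the effects of losing COX-1 and of losing COX-2 was detectable for a member with 3 arrays per group.

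The hippocampus was next compared with the cortex within each genotype, which asks how the level of these genes differs by region. Beside all region results of the COX-2 line, the choroid plexus marker measured (1 of 4 on a list) had a mean of 1.48 in hippocampus and 0.302 in cortex in COX-2-/- mice, 0.994 in hippocampus and 0.691 in cortex in COX-2+/- mice, and 1.58 in hippocampus and 0.199 in cortex in wild types, with single hippocampus arrays from 0.246 to 2.36. It was not analysed in the cortex of the COX-1 line, and its part was not tested. H2-T10 was the member with the most region calls, and its direction was not the same in all genotypes. In COX-1-/- mice it had 0.822, 0.760 and 0.802 in hippocampus, against 1.14, 1.13 and 0.900 in cortex. In wild-type mice of the COX-1 line it had 1.02, 0.806 and 0.831 in hippocampus, against 1.09, 1.12 and 1.13 in cortex. Neither pair of groups overlapped, and H2-T10 fell in the hippocampus of both (-0.262, SE 0.0675, adjusted p = 0.0198 in COX-1-/- and -0.228, SE 0.0675, adjusted p = 0.0317 in wild type).

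In COX-2+/- mice the order was turned round, though their region difference was not tested against that of the COX-1 line. H2-T10 had 1.10 on each of the 3 hippocampus arrays, against 0.795, 0.863 and 0.783 on the cortex arrays, and rose in the hippocampus by 0.286 (SE 0.0360, adjusted p = 0.000315). In COX-2-/- mice (0.0926, adjusted p = 0.230) and in wild-type mice of the COX-2 line (-0.0618, adjusted p = 0.303) the regions overlapped, and neither difference was called. The heterozygous difference was called under each of the 15 other settings tried. The COX-1-/- call was lost without cortex replicate 1 (-0.219) or 2 (-0.227) or hippocampus replicate 2 (-0.245) or 3 (-0.266). The COX-1 wild-type call was lost after quantile normalization (-0.199), without cortex replicate 1 (-0.241), 2 (-0.226) or 3 (-0.217), and without hippocampus replicate 2 (-0.189) or 3 (-0.201).

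In COX-1-/- mice limma called 3 of 26 members between the regions, against 16.8% of 2033 genes. Besides H2-T10 these were Nfkb2, with 0.170, 0.288 and 0.284 in hippocampus, against -0.0367, 0.0112 and -0.0185 in cortex (0.262, SE 0.0599, adjusted p = 0.0113), and Cd82. Nfkb2 passed the filter only through the hippocampus, where it was high, since its cortex mean was -0.0147, so this call is no support of its own. With no filter on mean Z the adjusted p was 0.0103, and with genes of a mean Z under 0.5 left out it was not tested. In wild types of the COX-1 line Nfkb2 had the same order, with a mean of 0.182 in hippocampus and 0.0365 in cortex, and was not called. Cd82, a tetraspanin and metastasis suppressor, had 0.110, 0.119 and 0.140 in hippocampus, against 0.305, 0.347 and 0.265 in cortex (-0.183, SE 0.0414, adjusted p = 0.0108). With only its probe above 0 the Cd82 difference was -0.0693 (adjusted p = 0.249), and without cortex replicate 2 it was -0.162 (adjusted p = 0.0554). Groups did not overlap for 11 of the 26 members (42.3%), against 39.3% of all genes.

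In wild-type mice of the COX-1 line limma called 4 of 26 members, against 20.4% of 2022 genes. Ccl27a fell to 0.914, 0.934 and 0.913 in hippocampus, against 1.11, 1.07 and 1.16 in cortex (-0.193, SE 0.0429, adjusted p = 0.00832), and it was called under each of 15 other settings. Rela had 0.485, 0.628 and 0.665 in hippocampus, against 0.277, 0.471 and 0.484 in cortex (0.182, SE 0.0591, adjusted p = 0.0453). C1qc had 0.151, 0.211 and 0.209 in hippocampus, against 0.283, 0.292 and 0.355 in cortex (-0.120, SE 0.0378, adjusted p = 0.0404).

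Those last calls were less firm. The Rela groups just cleared each other, and the probe at 1.33 in hippocampus and 1.23 in cortex differed less than the probe at -0.141 and -0.409, so that with only the probe above 0 the difference was 0.0955 (adjusted p = 0.156). The Rela call held in 7 of 15 other settings and was lost without cortex replicate 1 (0.115) or 2 (0.212) or hippocampus replicate 2 (0.164) or 3 (0.146). The C1qc call held in 5 of 15 and was lost without any 1 of the 6 arrays, where its difference lay between -0.133 and -0.0970. C1qa, below the filter and not tested, had -0.0668, 0.108 and -0.0293 in the same hippocampus, against -0.325, -0.349 and -0.377 in cortex, a difference of the opposite sign to that of C1qc. Fcer1g, a microglial marker, had -0.310 ± 0.137 in hippocampus and 0.514 ± 0.130 in cortex (SD, n = 3 each), so that it passed the filter only through cortex, and its part in the C1q values was not tested. Groups did not overlap for 6 members (23.1%), against 39.4% of all genes.

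In COX-2+/- mice limma called 3 of 42 members between the regions, against 12.5% of 3373 genes. Besides H2-T10, Ccl27a fell to 0.909, 0.917 and 0.856 in hippocampus, against 1.08, 1.12 and 1.08 in cortex (-0.202, SE 0.0551, adjusted p = 0.0241). C1qb rose to 0.575, 0.558 and 0.507 in hippocampus, against 0.449, 0.396 and 0.407 in cortex (0.129, SE 0.0363, adjusted p = 0.0276). Neither pair overlapped. The Ccl27a call was lost without cortex replicate 2 (-0.187) or 3 (-0.209) or any 1 hippocampus array (-0.213 to -0.183). That of C1qb was lost without cortex replicate 2 (0.119) or 3 (0.124) or hippocampus replicate 1 (0.115) or 2 (0.124), and after the running median was taken out (0.0872). Nfkb2, which lay under the filter here and was not tested, had -0.198, -0.218 and -0.200 in hippocampus, against -0.0398, -0.0128 and 0.00188 in cortex. This was the opposite order to COX-1-/- mice and to wild types of the COX-1 line.

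In COX-2-/- mice limma called 0 of 42 members, against 0.0297% of 3371 genes, with 8 at an unadjusted p under 0.05, against 14.8% of all genes. Nfkbia had the smallest spread relative to its difference among the NF-kappaB genes, with 0.542, 0.645 and 0.631 in hippocampus, against 0.439, 0.404 and 0.411 in cortex (0.188, SE 0.0417, adjusted p = 0.0750). In wild-type mice of the COX-2 line limma called 1 of 42, against 5.34% of 3369 genes. This was Ctsl, which had 0.258, 0.250 and 0.282 in hippocampus, against 0.0728, 0.129 and 0.189 in cortex (0.133, SE 0.0341, adjusted p = 0.0329), a call that held in 7 of 15 other settings. It was lost without cortex replicate 1 (0.104) or 2 (0.132) or any 1 hippocampus array (0.124 to 0.139), and after the running median was taken out (0.0367). Il13ra1 had a larger difference there, 0.379, but an adjusted p of 0.108, since its hippocampus arrays (2.05, 1.95 and 1.63) reached down into the range of its cortex arrays (1.41, 1.66 and 1.43). Groups did not overlap for 9 of 42 members (21.4%) in COX-2-/- mice, against 17.3% of all genes, for 16 (38.1%) in COX-2+/- mice, against 40%, and for 9 (21.4%) in wild-type mice, against 30.4%. Of the members called by region, Ccl27a and Cd82 were named after their values were seen.

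**Figure D3:**
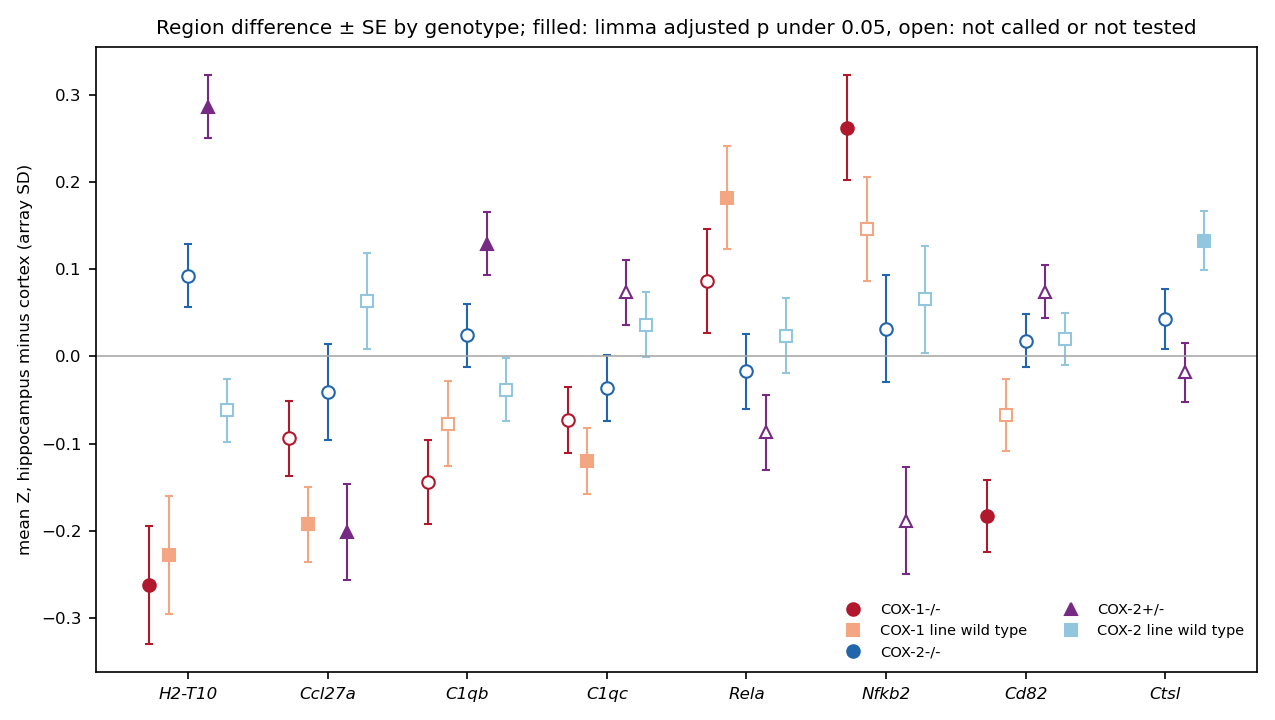
Difference in mean Z of hippocampus minus cortex (vertical axis, array SD) with its SE for 8 members in the 5 genotypes, filled where limma called it and open where it was not called or not tested. H2-T10 runs from -0.262 in COX-1-/- mice to 0.286 in COX-2+/- mice, and Nfkb2 from -0.188 in COX-2+/- mice to 0.262 in COX-1-/- mice.

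Since these patterns differed between groups, the differences between effects were tested themselves, in tests added after the data were seen. The COX-2+/- effect on H2-T10 was larger in hippocampus than in cortex by 0.348 (SE 0.0509, adjusted p = 0.00401), the only 1 of 42 members called, against 3.95% of 3367 genes (5, or 11.9%, at an unadjusted p under 0.05, against 19.8%). The value is made of 0.223 in hippocampus and -0.125 in cortex, and it was called in each of 16 other settings. For the COX-2-/- effect 0 of 42 members were called, against 0.624% of 3368 genes, while 12 (28.6%) had an unadjusted p under 0.05, against 21.2%. These included Cd177 (0.273, adjusted p = 0.0671), Nfkbia (0.188, adjusted p = 0.0965), H2-T10 (0.154, adjusted p = 0.114) and Tnfsf13b (-0.331, adjusted p = 0.129).

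For the COX-1-/- effect 0 of 26 members were called, against 0% of 2024 genes, and 0 had an unadjusted p under 0.05, against 13.3%. Between the wild types of the lines the region difference was compared as well, with 1 of 26 members called, against 4.92% of 2013 genes (5, or 19.2%, at an unadjusted p under 0.05, against 21.7%). That gene was Ccl27a, whose hippocampus minus cortex difference was lower in the COX-1 line by 0.257 (SE 0.0699, adjusted p = 0.0340). It is made of -0.193 in the COX-1 line and 0.0639 in the COX-2 line, where wild-type hippocampus had 0.932, 0.989 and 1.03, against 1.03, 0.953 and 0.777 in cortex. The size was smallest without COX-2 line wild-type cortex replicate 3, the lowest array, and the adjusted p was then 0.0990. C1qc (-0.156, adjusted p = 0.0564) and H2-T10 (-0.166, adjusted p = 0.186) differed in the same direction. Traf7 (0.158, adjusted p = 0.0991) and Rela (0.158, adjusted p = 0.192) differed in the other, and none of these was called.

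**Figure D4:**
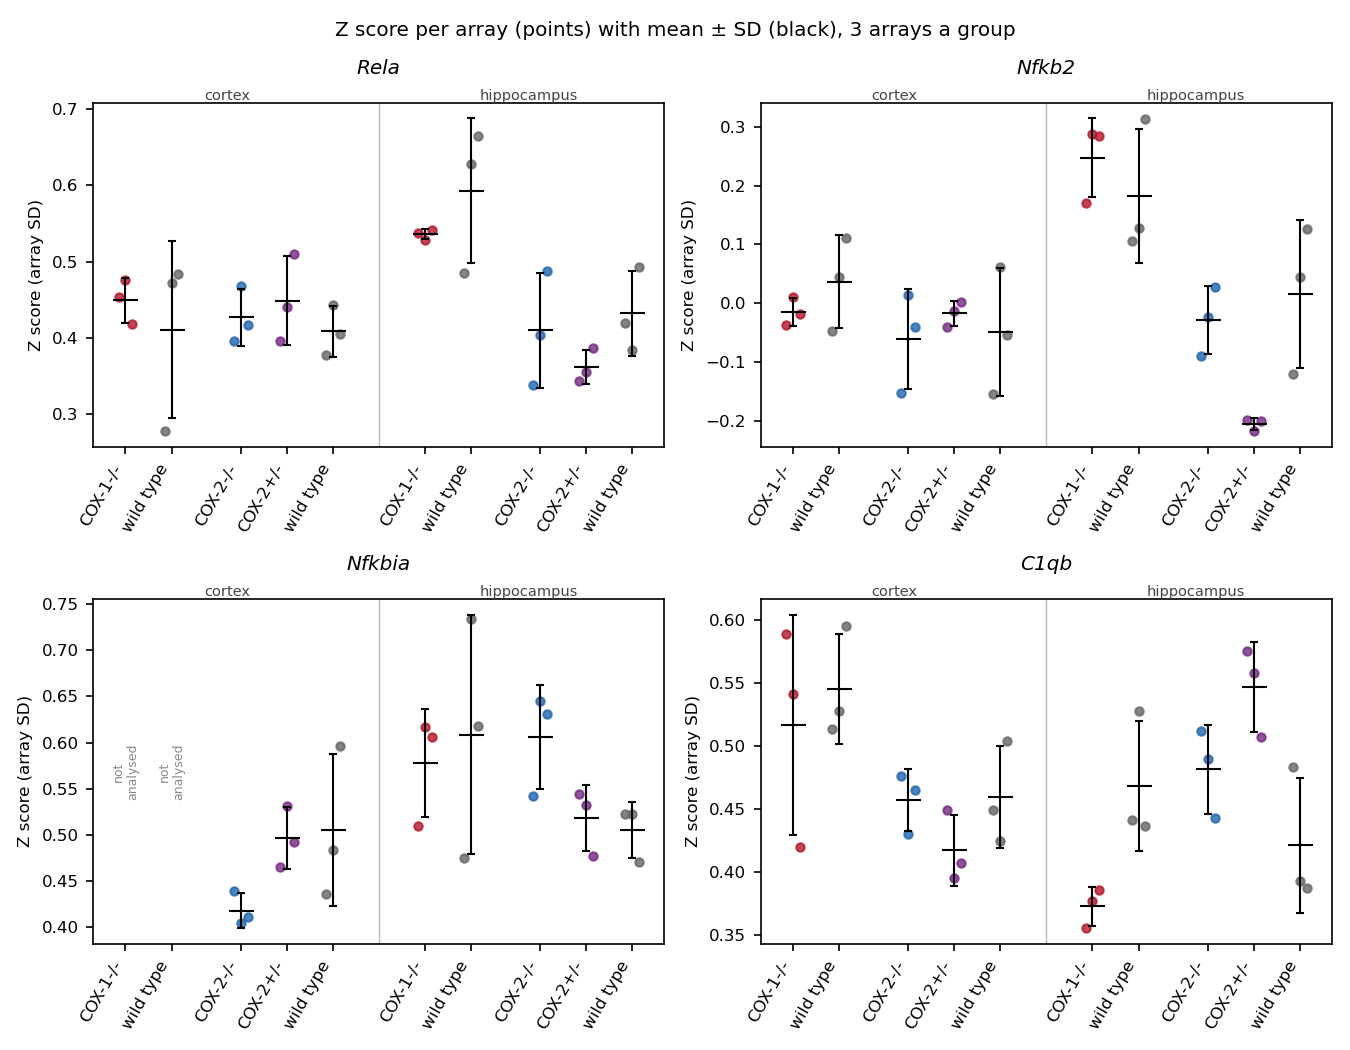
Z score (vertical axis, array SD) of Rela, Nfkb2, Nfkbia and C1qb on every analysed array, by genotype within cortex and hippocampus, with points for arrays and black bars for the mean ± SD of 3 arrays. Nfkb2 lies between 0.170 and 0.288 in COX-1-/- hippocampus and between -0.218 and -0.198 in COX-2+/- hippocampus. Its mean in the wild-type hippocampus is 0.182 in the COX-1 line and 0.0163 in the COX-2 line. Cortex values of Nfkbia were not analysed in the COX-1 line.

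Other genes of the same pathways were read from lists of which 20 of 36 NF-kappaB adaptors and kinases, 15 of 26 JAK, STAT and SOCS genes, 7 of 18 antigen processing genes and 10 of 28 interferon-stimulated genes had a probe. In the 6 genotype comparisons limma called 0 of them, and the study's rule called 2, both adaptors. Bcl10, which links antigen receptors to IKK, was lower in COX-1-/- hippocampus (0.0356 ± 0.0596 against 0.241 ± 0.0169 for wild type, SD, n = 3 each, z ratio -1.94, adjusted p = 0.111). Tollip, an inhibitor of Toll-like receptor signalling, was higher in COX-2-/- hippocampus (0.156 ± 0.0985 against 0.00172 ± 0.0584 in wild type, SD, n = 3 each, z ratio 1.68, adjusted p = 0.294). In the same comparisons 9 adaptors each were tested, with medians of -0.0190 and -0.0170, and the rule called 4.46% and 4% of all genes. The paper reports higher JAK1 in COX-1-/- hippocampus and lower JAK2 in COX-2-/- hippocampus, from its arrays and from quantitative PCR. No gene of the JAK, STAT and SOCS list was called here. The rule here took gene means and another divisor than the methods' formula, and the reason for the difference was not tested.

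Between the regions limma called 3 genes of these lists, each beside the share of all genes called there. Samhd1, an enzyme that degrades nucleotides and restricts viruses, rose in the hippocampus of COX-1 line wild types (1.07 against 0.843 in cortex, adjusted p = 0.00564), the only 1 of the interferon-stimulated list tested there, where 20.4% of all genes were called. Bst2, which tethers virus particles, rose in the hippocampus of COX-2+/- mice (0.320 against 0.0818 in cortex, adjusted p = 0.00737), as 1 of 4 of that list tested, against 12.5% of all genes. Tollip fell in the hippocampus of COX-2 line wild types (0.00172 against 0.179 in cortex, adjusted p = 0.0443), as 1 of 9 adaptors tested, against 5.34% of all genes.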

How the data were processed

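RNA of cortex and hippocampus was hybridised to 30 arrays, 3 in each of 10 groups. Per the labels and methods the authors reverse transcribed total RNA with 33P-dCTP, hybridised it to nylon cDNA arrays, scanned the membranes by phosphoimager, read spot intensities in ArrayPro and made Z scores in an Excel macro. The deposited values are these scores, standardised apart in the first and last 8448 probes. Symbols came from the platform annotation, with 9663 probes of 1 symbol and 436 of several, which were not used. A gene's probes were averaged. The COX-1 line cortex kept 4209 of 7151 genes.

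Fits of group means used limma 3.58.1 (R 4.3.3, eBayes, Benjamini-Hochberg over all genes tested). Genotype fits took all arrays of a region, except that the COX-2 cortex fit took the 9 arrays of its line over the whole table and the COX-1 cortex fit only the last 8448 probes. Region fits took the arrays of 1 line. Genes needed a mean Z above 0 in the compared groups. The z ratio's threshold of 1.5 follows the methods, but its divisor was the SD over genes of the differences compared, not the array SD that the methods' formula names. The code was tested on simulated data. Promoters were read with Python 3.11.15 and figures drawn with matplotlib 3.10.9. No sequencing depth applies, and the number of arrays limits the precision. All columns were mapped to a sample.

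Named genes were the members called in a genotype comparison, those called by region in both COX-1 genotypes or in 2 of 3 COX-2 genotypes, the 10 genes of highest and 5 of lowest mean Z (a way to choose, not a comparison of levels), a fixed set of class I, C1q, cathepsin and NF-kappaB genes, and up to 5 called genes of the lists. Other members were named after their values were seen. Among these were members with an unadjusted limma p under 0.05 and members called by region in a single genotype. Members and lists were chosen with earlier results of these data known. Alternatives covered normalization, filters, probe choice, thresholds, arrays in the fit, the replicate block and leaving out each array.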

Additional observations from a re-analysis of the deposited data

Results flagged for a closer look

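The effect of the heterozygous COX-2 genotype on H2-T10 differed between the regions by the test of the difference itself, at 0.348 (hippocampus minus cortex, SE 0.0509, adjusted p = 0.00401 with limma). All 3 heterozygous arrays lay above all 3 wild-type arrays in hippocampus and below them in cortex. Over 16 other settings the value lay between 0.329 and 0.376 with an adjusted p of up to 0.0170.

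The hippocampus minus cortex difference of Ccl27a differed between the wild types of the lines, at -0.257 (COX-1 line minus COX-2 line, SE 0.0699, adjusted p = 0.0340 with limma). The adjusted p was 0.0542 with median centring and 0.111 with only the arrays compared. Without single arrays it missed the threshold for COX-1 line cortex replicate 3 (0.0727) and hippocampus replicate 1 (0.0713) or 3 (0.0584), and for COX-2 line cortex replicate 3 (0.0990, value -0.185) and hippocampus replicate 2 (0.0812) or 3 (0.0903).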

How the results depend on the processing

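Counts are of members called. With no filter on mean Z the study's rule called 2 in COX-2-/- cortex, 3 in COX-2+/- cortex, 2 in COX-1-/- hippocampus, 4 in COX-2-/- hippocampus and 5 in COX-2+/- hippocampus, and limma 2 in COX-2+/- hippocampus and, between regions, 7 in COX-1-/-, 9 in COX-1 line wild type, 1 in COX-2-/-, 7 in COX-2+/- and 2 in COX-2 line wild type. With a mean Z above 0.5 the counts were 0 in COX-2-/- cortex by the study's rule and, between regions, 1 in COX-1-/-, 2 in COX-1 line wild type and 0 in COX-2 line wild type. With only probes above 0 the study's rule called 4 in COX-2-/- cortex, 3 in COX-2+/- cortex, 2 in COX-1-/- hippocampus and 3 in COX-2-/- hippocampus, and limma 1 between regions in COX-2-/-. After removal of the running median they were 2 in COX-2-/- cortex, 0 in COX-2-/- hippocampus and 5 between regions in COX-2+/-. At a z ratio beyond 2 they were 0 in COX-2+/- cortex, 0 in COX-2-/- hippocampus and 1 in COX-2+/- hippocampus. Quantile normalization gave 0 in COX-1-/- hippocampus, single probes in place of gene means 0 in COX-2-/- hippocampus, and both lines' wild types as control 3 in COX-2-/- hippocampus. With single probes the study's rule called H2-T10 and Tnfrsf23 in COX-2+/- hippocampus but not Ctsb. Fits of only the arrays compared gave 2 between regions in COX-1 line wild type and 0 in COX-2 line wild type, and an intensity trend 1 in COX-2-/-.

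Without single arrays the study's rule called 0 to 1 in COX-2-/- cortex, COX-1-/- hippocampus and COX-2-/- hippocampus, 0 to 2 in COX-2+/- cortex and 1 to 3 in COX-2+/- hippocampus. Limma then called 0 to 0 in COX-2+/- hippocampus and, between regions, 1 to 5 in COX-1-/-, 1 to 3 in COX-1 line wild type, 0 to 2 in COX-2-/-, 1 to 3 in COX-2+/- and 0 to 2 in COX-2 line wild type. Of the differences of named members, 0 changed direction, 172 kept their call and 88 lost it. Labels do not say whether equal replicate numbers are the same mouse, and correlations of same-numbered arrays (-0.130 to 0.195) do not settle it. Between the regions they were 0.0944, 0.0651 and 0.115 in COX-2 line wild types, against at most 0.0307 for other pairs. In COX-2+/- mice they were -0.0492, -0.0969 and 0.00216, against at most 0.122. The replicate block gave 2 between regions in COX-2 line wild type and changed no other count of members called. The causes were not tested.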

Other observations

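Class I probes that match several symbols were not among the members. The pair annotated to LOC547349, H2-K1 and H2-D1 had overall mean Z scores of 0.409 and 0.0712. The first had group means of 0.230 in COX-1-/- hippocampus and 0.299 in COX-1 line wild-type hippocampus, against 0.459 in COX-1-/- cortex and 0.432 in COX-1 line wild-type cortex. In COX-2+/- mice it had 0.368 in hippocampus and 0.514 in cortex, so that it did not show the order of the H2-T10 probe there. The other probe of the pair had 0.0345 in hippocampus and 0.0139 in cortex in COX-1-/- mice, -0.0413 in hippocampus and 0.168 in cortex in COX-1 line wild types, and 0.0368 in hippocampus and 0.0712 in cortex in COX-2+/- mice, so that the pair did not share an order in COX-1-/- mice. The probe annotated to H2-Q6 and Ddx39b had 0.799 to 0.922 over the 10 groups. These values were not tested.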
